A study of Homo sapiens with 18 samples.

Results

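The BCL2 family apoptosis regulators were followed in brain metastatic derivatives of H1650 and PC9. Both are cell lines from human lung adenocarcinomas whose EGFR carries an activating mutation. The 10 genes were taken by Ensembl identifier, without its version, from the 60603 rows of the H1650 count table and the 60649 rows of the PC9 count table. They are the pro-survival genes BCL2, BCL2L1, BCL2L2 and MCL1, the BH3-only genes BCL2L11, BMF, BIK, BBC3 and PMAIP1, and the effector BAX. All 10 were present in both tables and all 10 passed the filter on low counts in both lines. Poly-A selected RNA was sequenced in 3 groups per line with 3 libraries each, 18 libraries in all: a Tr-BrM line with S100A9 inhibited (labelled S100A9-inh), a Tr-BrM control and a BrM control. BrM is taken as the brain metastatic derivative that the series describes. The sources used here do not give what Tr stands for, how S100A9 was inhibited, whether a derivative is 1 clone or a pool, or whether replicate libraries were made from separate cultures. P-values therefore measure only the spread between these libraries, which may be technical.

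BCL2 family proteins decide whether the outer membrane of the mitochondrion stays intact. BAX and its relative BAK1 form the pores that release cytochrome c, pro-survival proteins such as MCL1 and BCL-XL (the product of BCL2L1) hold them back, and BH3-only proteins bind the pro-survival proteins or activate the effectors. In EGFR-mutant lung cancer cells BIM, the product of BCL2L11, is known as a mediator of cell death after EGFR inhibition, and BMF has been described beside it. Several of these proteins, MCL1 and NOXA among them, are regulated by degradation, which RNA counts do not measure.

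RefSeq promoter windows of GRCh38.p14, from 250 bases before to 50 bases after an annotated start, were at hand for 7 of the 10 genes, in 9 windows; none was at hand for BCL2L2, MCL1 and BIK. They were searched on both strands for GTAAACA (a FOXO element), CACGTG (an E-box, which reads the same on both strands and was counted once), TGANTCA (an AP-1 element) and GGGCGG (a GC box). Of 35116 RefSeq windows of the same length, 3.42% held the FOXO element, 7.26% the E-box, 7.71% the AP-1 element and 45% the GC box. The 4 windows printed below belong to BMF, whose RNA moved in opposite directions in the lines, to BCL2L11, the BH3-only gene best known in EGFR-mutant lung cancer, and to BAX, the effector. Capitals mark motif matches, each sequence is written 5′ to 3′ on the strand of its gene, and positions are counted from 1 at its first base.
BMF, first start, chr15:40108830-40109129, reverse strand: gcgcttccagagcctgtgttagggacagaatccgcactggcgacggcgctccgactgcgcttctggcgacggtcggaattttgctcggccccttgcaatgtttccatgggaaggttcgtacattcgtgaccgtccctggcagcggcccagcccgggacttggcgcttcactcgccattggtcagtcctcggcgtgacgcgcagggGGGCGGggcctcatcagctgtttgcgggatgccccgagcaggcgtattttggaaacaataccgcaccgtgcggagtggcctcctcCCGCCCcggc
BMF, second start, chr15:40106917-40107216, reverse strand: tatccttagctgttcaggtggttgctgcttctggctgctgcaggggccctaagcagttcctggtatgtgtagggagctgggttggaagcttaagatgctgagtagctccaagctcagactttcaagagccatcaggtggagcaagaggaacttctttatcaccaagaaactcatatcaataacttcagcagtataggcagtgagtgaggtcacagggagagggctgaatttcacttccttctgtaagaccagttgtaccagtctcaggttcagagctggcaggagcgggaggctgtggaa
BCL2L11, chr2:111120664-111120963, forward strand: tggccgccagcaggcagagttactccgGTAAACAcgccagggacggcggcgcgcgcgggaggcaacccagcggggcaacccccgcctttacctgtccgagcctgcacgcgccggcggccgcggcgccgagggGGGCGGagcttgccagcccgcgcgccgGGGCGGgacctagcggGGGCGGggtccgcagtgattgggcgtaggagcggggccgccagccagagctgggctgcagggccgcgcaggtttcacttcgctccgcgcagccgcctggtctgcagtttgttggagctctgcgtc
BAX, chr19:48954625-48954924, forward strand: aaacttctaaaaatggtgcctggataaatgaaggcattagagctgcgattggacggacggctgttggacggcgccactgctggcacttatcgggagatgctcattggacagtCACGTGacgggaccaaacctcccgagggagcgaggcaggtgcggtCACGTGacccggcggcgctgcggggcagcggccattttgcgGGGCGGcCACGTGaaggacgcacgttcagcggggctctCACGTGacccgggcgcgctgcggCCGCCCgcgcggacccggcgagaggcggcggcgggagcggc

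The first BMF window held 2 GC boxes, at positions 206 and 291, and the second held none of the 4 motifs. The BCL2L11 window held 1 FOXO element at position 28 and 3 GC boxes at positions 133, 160 and 176. In the BAX window 4 E-boxes stood at positions 113, 158, 206 and 237, beside 2 GC boxes at 199 and 260. These matches describe the letters of the windows, and no binding was measured.

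S100A9 RNA followed the labels. In H1650 it was 96.2 ± 8.5 CPM under S100A9-inh, 307 ± 25 CPM in Tr-BrM controls, and 207 ± 9.0 CPM in BrM controls, and in PC9 the same groups had 33.3 ± 2.6, 745 ± 12 and 122 ± 4.3 CPM (SD, n = 3 each). CPM are a gene's reads relative to all reads of the library after TMM scaling. H1650 libraries held 17.40 to 27.11 M counts and PC9 libraries 18.17 to 21.75 M. PC9 S100A9-inh replicate 1 stood apart from the other 2 libraries of its group, with a chi-square per degree of freedom of 6.51 and 5.849 against them, where they had 2.051 with each other. Without it the PC9 changes under S100A9-inh against Tr-BrM controls were 0.18 for MCL1 (with it 0.15 ± 0.043), -0.23 for BCL2L11 (with it -0.27 ± 0.071), 0.44 for BBC3 (with it 0.59 ± 0.17) and 0.26 for BAX (with it 0.30 ± 0.049) on the log2 scale. Against BrM controls they were -0.22 for PMAIP1 (with it -0.31 ± 0.086) and 0.11 for BAX (with it 0.14 ± 0.048), and all 6 passed in either case. Chi-square per degree of freedom showed milder gaps in other groups. H1650 S100A9-inh replicate 2 had 3.887 and 3.242 against the others, which had 2.252 with each other. Replicate 1 of the Tr-BrM controls had 3.111 and 3.277 against 2.128 in H1650, and 3.059 and 2.752 against 1.756 in PC9. The identity markers of lung carcinoma cells summed to 9170 to 9510 CPM under S100A9-inh, 9400 to 9720 CPM in the Tr-BrM controls and 11300 CPM in the BrM controls of H1650, and to 22100 to 24300, 21400 to 21900 and 27100 to 27500 CPM in PC9. They were EPCAM, CDH1, EGFR, KRT7, KRT8, KRT18, KRT19 and NKX2-1, which was at 0 in PC9 under S100A9-inh. Of 7 tested in each line, 1 rose and 5 fell in Tr-BrM controls against BrM controls. Under S100A9-inh against Tr-BrM controls 2 rose and 2 fell in H1650, and 2 rose and 3 fell in PC9. Against BrM controls 1 rose and 6 fell in H1650, and 7 fell in PC9. Leukocyte markers summed to 101 to 107, 89 to 94.7 and 87.4 to 90.8 CPM in H1650 and to 20 to 23.1, 12.9 to 15 and 31.7 to 32.4 CPM in PC9, in the same order of groups. CSF1R made up most of the H1650 sum, at 96.0 ± 2.2, 77.5 ± 2.8 and 85.9 ± 1.5 CPM, while PTPRC, the pan-leukocyte marker CD45, had 4.39 ± 0.56, 6.25 ± 0.75 and 1.33 ± 0.23 CPM. Of 7 leukocyte markers tested in H1650, 5 rose (PTPRC, 2.23 ± 0.17, adjusted p = 4.14e-12, among them) and 1, CSF1R, fell in Tr-BrM controls against BrM controls, with a median of 1.86. Under S100A9-inh against Tr-BrM controls 1, CSF1R, rose and 2 fell, with a median of -0.53. Of 3 tested in PC9, 2 rose and 1 fell in the first of these comparisons, and 1 rose and 1 fell in the second. In PC9 the leukocyte markers AIF1, LYZ and MS4A1 were at 0 in all Tr-BrM libraries, and CD3D, CD68 and MS4A1 were at 0 in the BrM controls; in H1650 CD68 was at 0 under S100A9-inh. Astrocyte markers summed to 171 to 184 CPM under S100A9-inh, 231 to 242 CPM in the Tr-BrM controls and 32.5 to 41.6 CPM in the BrM controls of H1650. In PC9 the same sums were 34.2 to 37.7, 97.7 to 103 and 15.4 to 16.5 CPM, with AQP4 and S100B at 0 in all Tr-BrM libraries and S100B also at 0 in the BrM controls. SLC1A3 made up most of these PC9 sums, at 34.1 ± 1.7, 97.6 ± 3.05 and 15.1 ± 0.53 CPM. Of 6 astrocyte markers tested in H1650, 5 rose and 1 fell in Tr-BrM controls against BrM controls, and 4 fell under S100A9-inh against Tr-BrM controls. In PC9, of 3 tested astrocyte markers, 2 rose in Tr-BrM controls against BrM controls and 1 fell under S100A9-inh. The part of these markers in the results below was not tested, and in bulk RNA fewer cells of a type and less RNA per cell cannot be told apart.

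Between Tr-BrM and BrM controls, the genes that passed rose in H1650 and fell in PC9. In H1650, 6 of the 10 genes rose in Tr-BrM controls against BrM controls and none fell, where 32.2% of all tested genes rose and 31.7% fell (63.9% in either direction). All 4 pro-survival genes were among the 6, with the BH3-only genes BMF and BIK, and the median log2 fold change of the 10 was 0.29, against -0.001 for all tested genes. In PC9 the same comparison gave 7 of 10 lower and none higher, where 30.3% of tested genes fell and 29.6% rose (59.9% in either direction). The 7 were BCL2L2 and MCL1, 4 BH3-only genes (BMF, BIK, BBC3 and PMAIP1) and BAX, and the median was -0.36. A gene counts as called, and "rose" or "fell" is used of it, at an adjusted p under 0.05 in edgeR's quasi-likelihood test over all genes of the line.

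**Figure D1:**
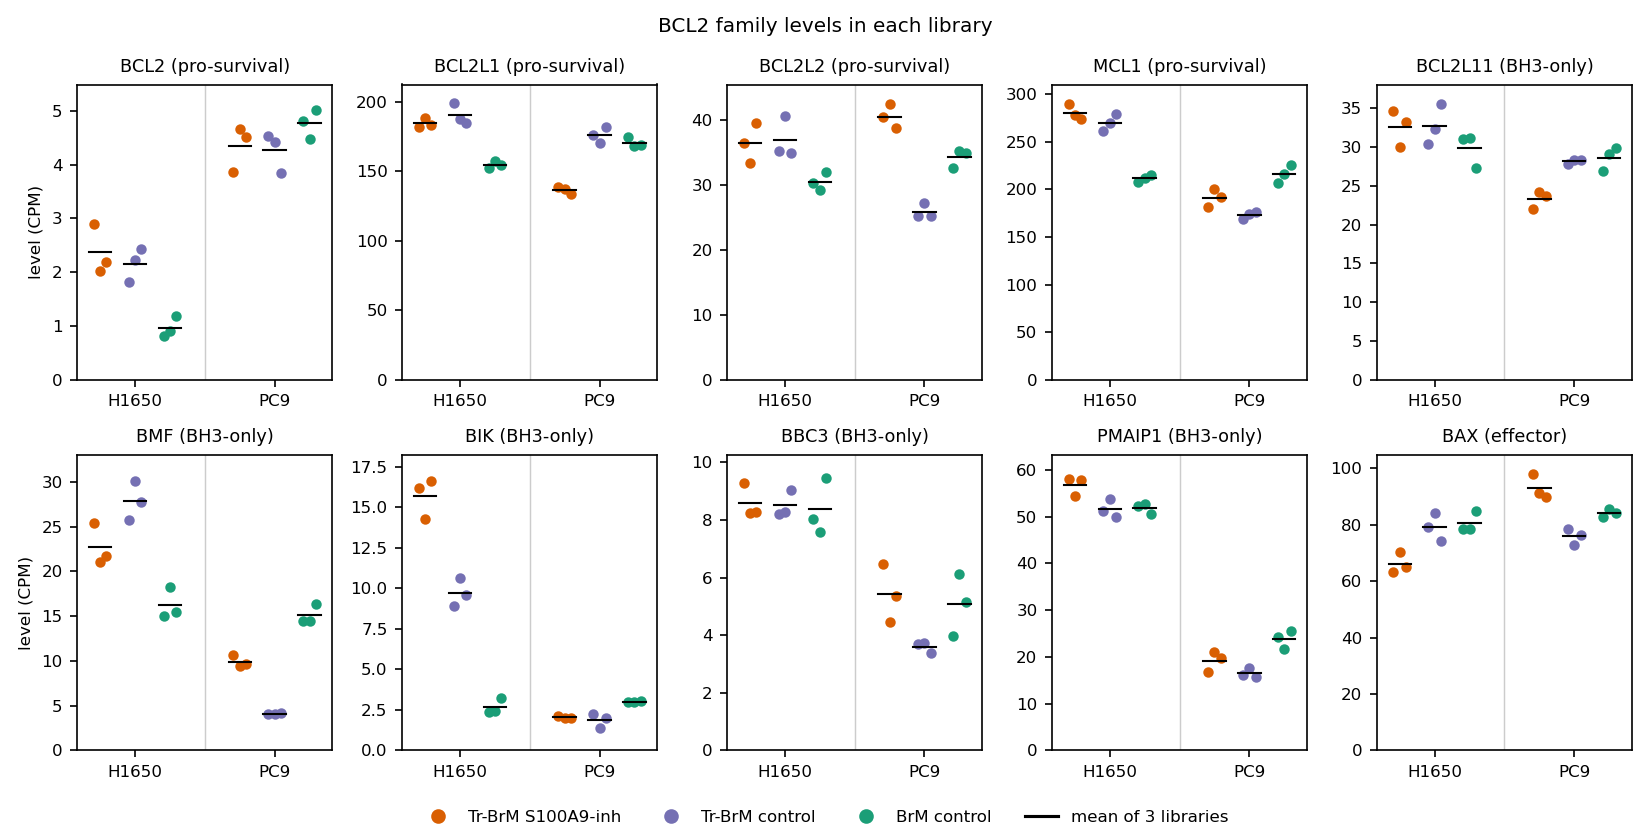
Level of each of the 10 genes in every library, as CPM on a linear axis, with S100A9-inh, Tr-BrM control and BrM control from left to right and the group mean as a bar. BMF stands lowest in the 3 PC9 Tr-BrM controls, at 4.04 to 4.19 CPM, and highest in the 3 H1650 Tr-BrM controls, at 25.8 to 30.1 CPM.

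Between S100A9-inh and Tr-BrM controls 4 of the genes passed in H1650 and 8 in PC9. In H1650, S100A9-inh against the Tr-BrM control gave 2 genes higher (BIK and PMAIP1), 2 lower (BMF and BAX) and 6 that did not pass, where 15.4% of tested genes rose and 13.8% fell (29.2% in either direction). In PC9 it gave 6 higher (BCL2L2, MCL1, BMF, BBC3, PMAIP1 and BAX), 2 lower (BCL2L1 and BCL2L11) and 2 that did not pass, where 26.3% rose and 26.1% fell (52.5% in either direction). The Tr-BrM controls enter this comparison and the one before it, so values of a gene in both are given side by side and are not independent. Against the BrM control, S100A9-inh gave 7 higher (the 4 pro-survival genes, BMF, BIK and PMAIP1) and 1 lower (BAX) in H1650, where 32.5% of tested genes rose and 31.2% fell (63.6% in either direction). In PC9 it gave 2 higher (BCL2L2 and BAX) and 6 lower (BCL2L1, MCL1, BCL2L11, BMF, BIK and PMAIP1), where 22.7% rose and 23.6% fell (46.3% in either direction). Without PC9 S100A9-inh replicate 1, 8 genes passed in each of these PC9 comparisons as before, in the same directions; PMAIP1 was then 0.31 (adjusted p = 0.00234) against Tr-BrM controls. The medians of the 10 genes were 0.007 in H1650 and 0.18 in PC9 against Tr-BrM controls, and 0.26 and -0.24 against BrM controls, where those of all tested genes lay between -0.002 and 0.004.

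**Figure D2:**
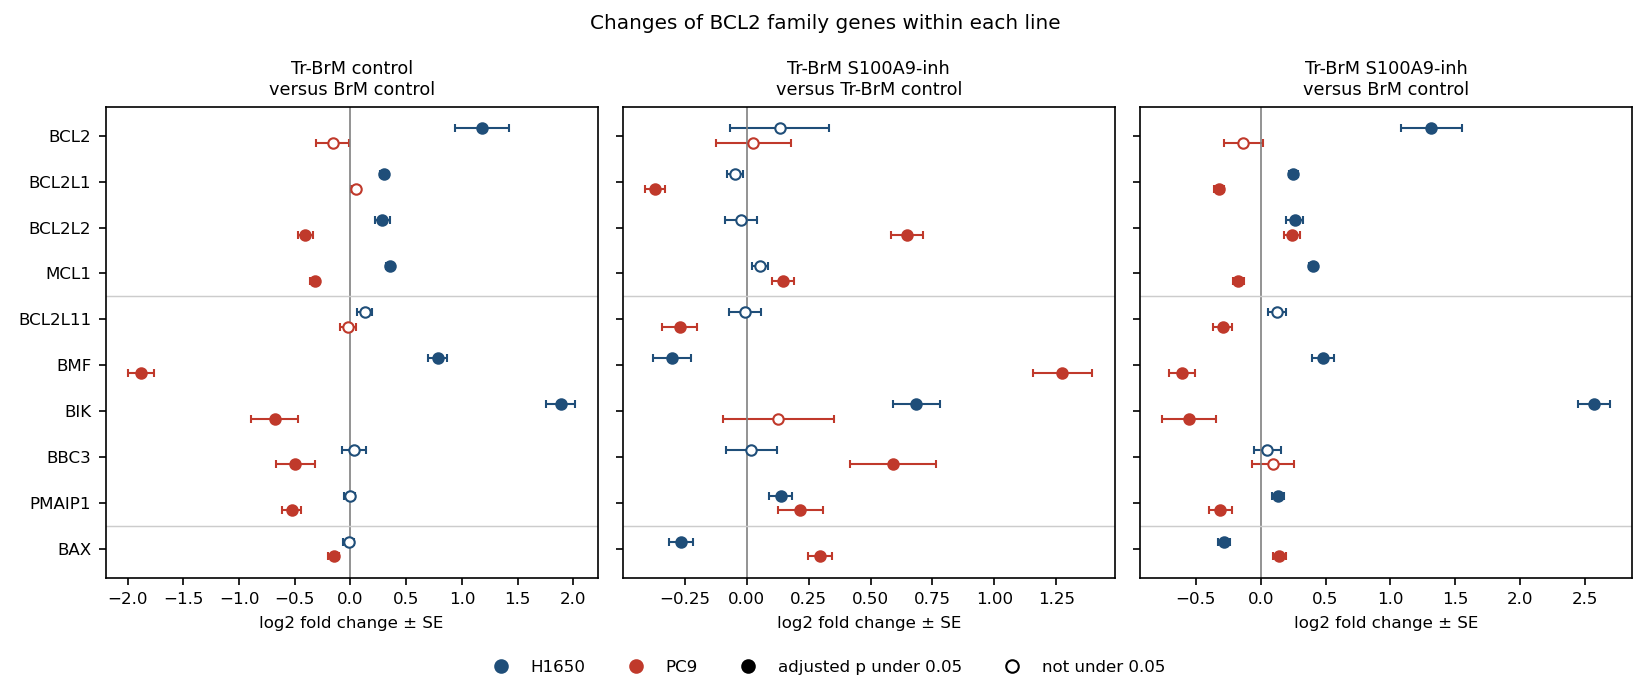
Log2 fold change of each gene in the 3 comparisons of each line, with bars of 1 SE and filled points for an adjusted p under 0.05. In Tr-BrM against BrM controls no H1650 gene that passed lies below 0 and no PC9 gene that passed lies above 0.

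MCL1 (ENSG00000143384, GRCh38 chromosome 1, 150574551 to 150579738, reverse strand) encodes a short-lived pro-survival protein that binds BIM and NOXA. H1650 libraries had 289, 278 and 274 CPM under S100A9-inh, 262, 270 and 279 CPM in Tr-BrM controls, and 208, 212 and 216 CPM in BrM controls. All 6 Tr-BrM libraries of H1650 stood above all 3 BrM controls, and the 2 Tr-BrM groups overlapped. MCL1 rose in Tr-BrM controls against BrM controls (log2 fold change 0.35 ± 0.033 SE, adjusted p = 2.26e-10), and S100A9-inh against the Tr-BrM control gave 0.052 ± 0.032, adjusted p = 0.249. PC9 libraries had 182, 200.2 and 192 CPM under S100A9-inh, 169, 174 and 176 CPM in Tr-BrM controls, and 207, 216 and 226 CPM in BrM controls. The order was different there: the BrM controls were highest, the Tr-BrM controls lowest and the S100A9-inh libraries between them, with no overlap. MCL1 fell in PC9 Tr-BrM controls against BrM controls (log2 fold change -0.32 ± 0.043 SE, adjusted p = 1.15e-07) and rose under S100A9-inh against Tr-BrM controls (log2 fold change 0.15 ± 0.043 SE, adjusted p = 0.00461). Between the lines the first change differed by -0.67 ± 0.055 SE, adjusted p = 6.93e-14 (PC9 minus H1650), whereas the second differed by 0.098 ± 0.055 SE, adjusted p = 0.158. Without PC9 S100A9-inh replicate 1 this second difference was 0.126, with an adjusted p of 0.0462.

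BCL2L1 (ENSG00000171552, chromosome 20, 31664452 to 31723989, reverse strand) encodes BCL-XL. H1650 had 182, 189 and 183 CPM under S100A9-inh, 199, 188 and 185 CPM in Tr-BrM controls, and 153, 158 and 155 CPM in BrM controls. Again the 6 Tr-BrM libraries were above the BrM controls and the 2 Tr-BrM groups overlapped. The gene rose in Tr-BrM controls against BrM controls (log2 fold change 0.30 ± 0.034 SE, adjusted p = 9.65e-09), and S100A9-inh against the Tr-BrM control gave -0.048 ± 0.033, adjusted p = 0.314. PC9 had 139, 137 and 134 CPM under S100A9-inh, 177, 171 and 182 CPM in Tr-BrM controls, and 175, 168 and 169 CPM in BrM controls. Here the 2 control groups overlapped and all 3 S100A9-inh libraries lay below them. BCL2L1 fell under S100A9-inh in PC9 against Tr-BrM controls (log2 fold change -0.37 ± 0.040 SE, adjusted p = 4.65e-09) and against BrM controls (log2 fold change -0.32 ± 0.040 SE, adjusted p = 8.02e-08). The change under S100A9-inh against the Tr-BrM control differed between the lines by -0.32 ± 0.052 SE, adjusted p = 2.85e-06. Its exons share 1424 bases, 43% of their length, with the antisense gene ABALON. ABALON had 25 to 56 counts in H1650 and 0 to 2 in PC9, against at least 2615 counts of BCL2L1 in H1650. Strand use in counting is not given, so reads of the shared bases cannot be told apart.

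BCL2L2 (ENSG00000129473, chromosome 14, 23298790 to 23311759, forward strand) encodes BCL-W. H1650 showed 36.5, 33.5 and 39.6 CPM under S100A9-inh, 35.3, 40.6 and 35.0 CPM in Tr-BrM controls, and 30.4, 29.3 and 32.1 CPM in BrM controls. It rose in H1650 Tr-BrM controls against BrM controls (log2 fold change 0.29 ± 0.067 SE, adjusted p = 0.000494), with no overlap between these groups, and the 2 Tr-BrM groups overlapped (-0.023 ± 0.063, adjusted p = 0.835). In PC9 it was 40.5, 42.5 and 38.8 CPM under S100A9-inh, 25.2, 27.2 and 25.3 CPM in Tr-BrM controls, and 32.6, 35.3 and 35.0 CPM in BrM controls. The 3 PC9 groups did not overlap, with the Tr-BrM controls lowest and S100A9-inh highest. BCL2L2 fell in PC9 Tr-BrM controls against BrM controls (log2 fold change -0.40 ± 0.067 SE, adjusted p = 4.95e-06) and was 1.57-fold higher under S100A9-inh than in Tr-BrM controls (log2 fold change 0.65 ± 0.066 SE, adjusted p = 1.12e-09). The change under S100A9-inh against the Tr-BrM control differed between the lines by 0.67 ± 0.095 SE, adjusted p = 1.56e-07. The read-through gene BCL2L2-PABPN1 shares 813 exon bases with it on the same strand and had 0 to 3 counts in both lines. PPP1R3E shares 206 exon bases with BCL2L2 on the opposite strand and had 31 to 69 counts in H1650 and 82 to 129 in PC9. How reads of shared bases were counted is not given.

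BCL2 (ENSG00000171791, chromosome 18, 63123346 to 63320128, reverse strand), the founding pro-survival gene, was the scarcest of the 10 per length in every group. In H1650 it had 2.9, 2.03 and 2.19 CPM under S100A9-inh, 1.82, 2.23 and 2.43 CPM in Tr-BrM controls, and 0.813, 0.910 and 1.18 CPM in BrM controls. All Tr-BrM libraries were above all BrM controls, whose values rest on 18 to 20 counts each. It rose in Tr-BrM controls against BrM controls (log2 fold change 1.18 ± 0.24 SE, adjusted p = 0.000112). In PC9 it had 3.87, 4.66 and 4.51 CPM under S100A9-inh, 4.53, 4.43 and 3.84 CPM in Tr-BrM controls, and 4.81, 4.47 and 5.02 CPM in BrM controls, and the 3 groups overlapped. No PC9 comparison of BCL2 passed, with adjusted p from 0.369 to 0.895. The difference between the lines in Tr-BrM against BrM controls was -1.35 ± 0.28 SE, adjusted p = 7.52e-05.

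BMF (ENSG00000104081, chromosome 15, 40087890 to 40108892, reverse strand), whose 2 promoter windows are printed above, encodes a BH3-only protein that binds pro-survival members and is tied to cell detachment. H1650 contained it at 25.4, 21.0 and 21.8 CPM under S100A9-inh, 25.8, 30.1 and 27.8 CPM in Tr-BrM controls, and 15.0, 18.3 and 15.5 CPM in BrM controls. The Tr-BrM controls were highest, the S100A9-inh libraries in between and the BrM controls lowest, with no overlap. It was 1.72-fold higher in H1650 Tr-BrM controls than in BrM controls (log2 fold change 0.78 ± 0.083 SE, adjusted p = 2.34e-09) and fell under S100A9-inh against Tr-BrM controls (log2 fold change -0.30 ± 0.076 SE, adjusted p = 0.00319). In PC9 it was 10.7, 9.45 and 9.62 CPM under S100A9-inh, 4.06, 4.04 and 4.19 CPM in Tr-BrM controls, and 14.5, 14.4 and 16.4 CPM in BrM controls. Here the Tr-BrM controls were lowest, the S100A9-inh libraries again in between and the BrM controls highest, also with no overlap. BMF was 3.68-fold lower in PC9 Tr-BrM controls than in BrM controls (log2 fold change -1.88 ± 0.12 SE, adjusted p = 6.72e-15) and 2.42-fold higher under S100A9-inh than in Tr-BrM controls (log2 fold change 1.275 ± 0.12 SE, adjusted p = 2.86e-10). Without PC9 S100A9-inh replicate 1 the second change was 1.22. S100A9-inh libraries were higher than BrM controls in H1650 (log2 fold change 0.48 ± 0.084 SE, adjusted p = 1.21e-05) and lower in PC9 (log2 fold change -0.61 ± 0.0995 SE, adjusted p = 7.72e-06). The difference between the lines was -2.66 ± 0.14 SE, adjusted p = 1.8e-19 for Tr-BrM against BrM controls and 1.58 ± 0.15 SE, adjusted p = 1.1e-11 for S100A9-inh against Tr-BrM controls. The antisense gene BMF-AS1, which shares 461 exon bases, had 0 counts in both lines.

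BIK (ENSG00000100290, chromosome 22, 43110748 to 43129712, forward strand) encodes a BH3-only protein of the endoplasmic reticulum membrane. H1650 had 16.2, 14.3 and 16.6 CPM under S100A9-inh, 8.89, 10.7 and 9.62 CPM in Tr-BrM controls, and 2.39, 2.41 and 3.25 CPM in BrM controls. The 3 groups followed each other without overlap, BrM controls lowest and S100A9-inh highest. BIK was 3.69-fold higher in Tr-BrM controls than in BrM controls (log2 fold change 1.89 ± 0.13 SE, adjusted p = 3.32e-13), 1.61-fold higher under S100A9-inh than in Tr-BrM controls (log2 fold change 0.68 ± 0.095 SE, adjusted p = 1.74e-06) and 5.93-fold higher under S100A9-inh than in BrM controls (log2 fold change 2.57 ± 0.12 SE, adjusted p = 4.48e-17). PC9 had 2.13, 2.03 and 1.99 CPM under S100A9-inh, 2.24, 1.41 and 1.99 CPM in Tr-BrM controls, and 2.99, 2.96 and 3.07 CPM in BrM controls. All PC9 libraries were at or below 3.07 CPM, on 29 to 66 counts, and the BrM controls lay above all others. BIK fell in PC9 Tr-BrM controls against BrM controls (log2 fold change -0.68 ± 0.21 SE, adjusted p = 0.00608), a call that was lost without PC9 Tr-BrM control replicate 2 (-0.50, adjusted p = 0.0526). It fell under S100A9-inh against BrM controls (log2 fold change -0.55 ± 0.21 SE, adjusted p = 0.0282), which was lost when any of 5 of the 9 libraries was left out (BrM control replicates 1, 2 and 3 and S100A9-inh replicates 2 and 3), at adjusted p of 0.0549 to 0.0689. Between the lines the change in Tr-BrM against BrM controls differed by -2.57 ± 0.23 SE, adjusted p = 1.33e-12.

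BCL2L11 (ENSG00000153094, chromosome 2, 111119378 to 111168447, forward strand) encodes BIM, and its promoter window with the FOXO element is printed above. In H1650 it had 34.6, 30.0 and 33.2 CPM under S100A9-inh, 30.3, 32.4 and 35.6 CPM in Tr-BrM controls, and 31.1, 31.2 and 27.3 CPM in BrM controls. The 3 groups overlapped and no H1650 comparison passed (0.13 ± 0.068, adjusted p = 0.0973 for Tr-BrM against BrM controls, -0.005 ± 0.065, adjusted p = 0.969 for S100A9-inh against Tr-BrM controls). The first of these passed without Tr-BrM control replicate 1 (0.18, adjusted p = 0.0318), and S100A9-inh against the BrM control passed without S100A9-inh replicate 2 (0.18, adjusted p = 0.023). In PC9 it had 22.1, 24.3 and 23.7 CPM under S100A9-inh, 27.8, 28.3 and 28.4 CPM in Tr-BrM controls, and 26.9, 29.1 and 29.9 CPM in BrM controls. The 2 PC9 control groups overlapped and the 3 S100A9-inh libraries lay below both. BCL2L11 fell under S100A9-inh in PC9 against Tr-BrM controls (log2 fold change -0.27 ± 0.071 SE, adjusted p = 0.00188) and against BrM controls (log2 fold change -0.29 ± 0.071 SE, adjusted p = 0.000913). The change under S100A9-inh against the Tr-BrM control differed between the lines by -0.26 ± 0.098 SE, adjusted p = 0.0291. That call was lost without H1650 Tr-BrM control replicate 1, H1650 S100A9-inh replicate 1 or PC9 S100A9-inh replicate 1 (-0.23, adjusted p = 0.064, for the last). The long noncoding RNA MIR4435-2HG shares 727 exon bases on the opposite strand and had 434 to 753 counts in H1650 and 473 to 599 in PC9. The sources used here do not say whether strand was used in counting, so reads of the shared bases cannot be told apart.

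BBC3 (ENSG00000105327, chromosome 19, 47220822 to 47232766, reverse strand) encodes PUMA, which binds all pro-survival members. H1650 had 9.29, 8.23 and 8.28 CPM under S100A9-inh, 8.22, 8.27 and 9.04 CPM in Tr-BrM controls, and 8.04, 7.596 and 9.46 CPM in BrM controls, with all 3 groups overlapping and no comparison past the test (adjusted p of 0.687 to 0.917). PC9 had 6.48, 4.47 and 5.37 CPM under S100A9-inh, 3.70, 3.75 and 3.38 CPM in Tr-BrM controls, and 3.97, 6.12 and 5.16 CPM in BrM controls. The Tr-BrM controls were the lowest group, and the BrM controls were spread, with replicate 1 near the Tr-BrM level; the S100A9-inh and BrM groups overlapped. BBC3 fell in PC9 Tr-BrM controls against BrM controls (log2 fold change -0.50 ± 0.17 SE, adjusted p = 0.0143), which was lost without BrM control replicate 2 (-0.34, adjusted p = 0.129) or Tr-BrM control replicate 3 (-0.45, adjusted p = 0.0562). It rose under S100A9-inh against Tr-BrM controls (log2 fold change 0.59 ± 0.17 SE, adjusted p = 0.00457), and without PC9 S100A9-inh replicate 1, the highest of its group, the change was 0.44 with an adjusted p of 0.034.

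PMAIP1 (ENSG00000141682, chromosome 18, 59899948 to 59904306, forward strand) encodes NOXA, which binds MCL1. H1650 had 58.0, 54.5 and 57.9 CPM under S100A9-inh, 51.2, 53.8 and 49.8 CPM in Tr-BrM controls, and 52.3, 52.7 and 50.6 CPM in BrM controls. The control groups overlapped, and the S100A9-inh libraries lay above both. The change under S100A9-inh was small: 0.14 ± 0.045, adjusted p = 0.022 against Tr-BrM controls and 0.13 ± 0.046, adjusted p = 0.0145 against BrM controls. The first call was lost without Tr-BrM control replicate 1 or 3 or S100A9-inh replicate 1 or 3 (adjusted p of 0.0643 to 0.116), and the second without BrM control replicate 3 or S100A9-inh replicate 1 or 3 (0.0586 to 0.0673). PC9 had 16.8, 21.1 and 19.7 CPM under S100A9-inh, 16.1, 17.6 and 15.8 CPM in Tr-BrM controls, and 24.2, 21.8 and 25.5 CPM in BrM controls. The Tr-BrM controls lay below the BrM controls and PMAIP1 fell there (log2 fold change -0.53 ± 0.088 SE, adjusted p = 5.78e-06). S100A9-inh overlapped the Tr-BrM controls and passed narrowly (log2 fold change 0.22 ± 0.091 SE, adjusted p = 0.0445), a call lost when any of 6 of the 9 libraries was left out. Those were BrM control replicates 1 and 3, Tr-BrM control replicates 1 and 3 and S100A9-inh replicates 2 and 3, and without S100A9-inh replicate 2 the value was 0.14.

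BAX (ENSG00000087088, chromosome 19, 48954815 to 48961798, forward strand), the pore-forming effector, had 63.1, 70.2 and 65.1 CPM under S100A9-inh, 79.3, 84.3 and 74.0 CPM in Tr-BrM controls, and 78.4, 78.3 and 84.8 CPM in BrM controls in H1650. The 2 control groups overlapped and all S100A9-inh libraries lay below them. BAX fell under S100A9-inh in H1650 against Tr-BrM controls (log2 fold change -0.27 ± 0.048 SE, adjusted p = 9.16e-05) and against BrM controls (log2 fold change -0.28 ± 0.049 SE, adjusted p = 1.09e-05). In PC9 it had 97.9, 91.2 and 89.8 CPM under S100A9-inh, 78.5, 72.7 and 76.3 CPM in Tr-BrM controls, and 82.8, 85.5 and 84.2 CPM in BrM controls. There the S100A9-inh libraries were above all others and the Tr-BrM controls below the BrM controls. BAX rose under S100A9-inh in PC9 against Tr-BrM controls (log2 fold change 0.30 ± 0.049 SE, adjusted p = 7.19e-06). Its fall in PC9 Tr-BrM controls against BrM controls (log2 fold change -0.15 ± 0.049 SE, adjusted p = 0.00926) was lost without Tr-BrM control replicate 2 (-0.12, adjusted p = 0.0747), and its rise under S100A9-inh against BrM controls (log2 fold change 0.14 ± 0.048 SE, adjusted p = 0.0147) was lost without BrM control replicate 1 (0.13, adjusted p = 0.0709). The change of BAX under S100A9-inh against the Tr-BrM control differed between the lines by 0.56 ± 0.072 SE, adjusted p = 1.86e-08, with opposite directions in the 2 lines.

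Per length, MCL1 and BCL2L1 were the most abundant of the 10 genes in every group. In H1650 BrM controls MCL1 was at 165 ± 2.9 and BCL2L1 at 159 ± 2.7 TPM (counts divided by exon length and rescaled to 1 total for all libraries; SD, n = 3), and their libraries overlapped. BAX followed at 106 ± 4.8 TPM and PMAIP1 at 78.7 ± 1.8 TPM. BMF, BIK and BBC3, at 10.1 ± 1.1, 9.56 ± 1.7 and 8.92 ± 1.0 TPM, were neighbours that overlapped in this group. BIK ranked higher in the other H1650 groups, at 58.3 ± 4.6 TPM under S100A9-inh, above BCL2L2, and at 36.7 ± 3.7 TPM in Tr-BrM controls, where it overlapped BCL2L2. In PC9 BMF was at 6.34 ± 0.34 TPM under S100A9-inh, 2.48 ± 0.060 TPM in Tr-BrM controls and 9.48 ± 0.72 TPM in BrM controls. PMAIP1 was at 29.9 ± 3.8, 24.3 ± 1.6 and 36.5 ± 3.0 TPM in these PC9 groups. BCL2 was last throughout, at most 1.39 ± 0.084 TPM.

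Summed by role, H1650 had its lowest pro-survival and BH3-only levels in the BrM controls, and PC9 its highest. In H1650 the 4 pro-survival genes summed to 462, 455 and 451 TPM under S100A9-inh, 457, 466 and 463 TPM in the Tr-BrM controls and 342, 351 and 352 TPM in the BrM controls. The 5 BH3-only genes of H1650 summed to 198, 178 and 194 TPM, then 157, 175 and 165 TPM, and then 122, 124 and 122 TPM in the same order of groups. The BrM controls of H1650 lay below all other H1650 libraries in both sums. In PC9 the pro-survival sum was 320.1, 343 and 331 TPM under S100A9-inh, 321, 326 and 336 TPM in the Tr-BrM controls and 369, 373 and 383 TPM in the BrM controls. The PC9 BH3-only sum was 58.5, 64.4 and 63.0 TPM, then 51.1, 51.5 and 50.4 TPM, and then 74.8, 74.5 and 81.5 TPM. The PC9 BH3-only sum was lowest in the Tr-BrM controls, with no overlap among the 3 groups, and the pro-survival sums of the Tr-BrM groups overlapped. The ratio of BH3-only to pro-survival TPM was 0.429, 0.391 and 0.431 under S100A9-inh, 0.343, 0.376 and 0.356 in Tr-BrM controls and 0.355, 0.354 and 0.347 in BrM controls of H1650. In PC9 it was 0.183, 0.188 and 0.19 under S100A9-inh, 0.159, 0.158 and 0.15 in Tr-BrM controls and 0.203, 0.2 and 0.213 in BrM controls. Single genes weigh unequally in such sums: in H1650 BIK had 58.3 ± 4.6 TPM under S100A9-inh, 36.7 ± 3.7 TPM in Tr-BrM controls and 9.56 ± 1.7 TPM in BrM controls, and PMAIP1 90 ± 3.3, 83 ± 3.7 and 78.7 ± 1.8 TPM. The sums are RNA levels and were not tested.

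**Figure D3:**
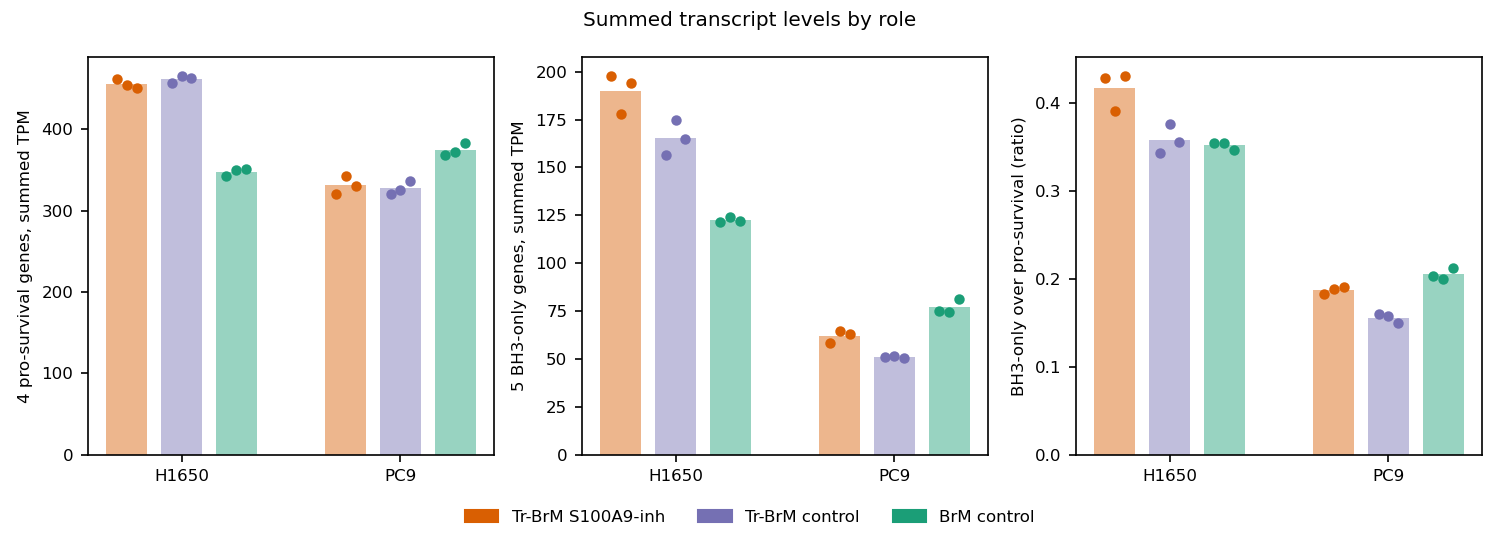
Summed TPM of the pro-survival and BH3-only genes and the ratio of the sums in every library, with S100A9-inh left of Tr-BrM control and BrM control. The ratio is 0.391 to 0.431 under S100A9-inh in H1650 and 0.15 to 0.159 in the Tr-BrM controls of PC9.

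The change in Tr-BrM against BrM controls differed between the lines for 8 of the 10 genes, where 54.6% of the 19076 genes kept in the joint model of the 18 libraries differed, and all 8 differences (PC9 minus H1650) were negative. They were BCL2, BCL2L1, BCL2L2, MCL1, BMF, BIK, BBC3 and PMAIP1. For S100A9-inh against Tr-BrM controls 7 of 10 differed, where 40.4% of genes did, and 3 of the 7 were negative (BCL2L1, BCL2L11 and BIK) and 4 positive (BCL2L2, BMF, BBC3 and BAX). That of BIK, at an adjusted p of 0.0497, was lost in 13 of 18 omissions of a library. For S100A9-inh against BrM controls 8 of 10 differed, where 50.2% of genes did, and 7 of the 8 were negative, BAX being the exception. The shares of all genes are for either sign, and the negative share was not counted. In a test of changes beyond 1.5-fold, 2573, 666 and 1956 genes were negative and 2175, 889 and 1865 positive, in the same order of comparisons. These differences come from the same libraries as the changes within each line and are not independent of them.

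The other BCL2 family genes and the steps downstream of the pore were counted from lists. Over all genes tested, 32.2% rose and 31.7% fell in H1650 and 29.6% rose and 30.3% fell in PC9 in Tr-BrM against BrM controls. Under S100A9-inh against Tr-BrM controls 15.4% rose and 13.8% fell in H1650 and 26.3% rose and 26.1% fell in PC9, and each list's counts below are to be read beside these shares. Of 9 other family genes tested in H1650, 7 rose, 1 fell and 1 did not pass in Tr-BrM against BrM controls (median 0.39), and 1 rose, 3 fell and 5 did not pass under S100A9-inh against Tr-BrM controls (median -0.078). BID, the BH3-only protein cut by caspase-8, rose in the first comparison (0.42 ± 0.039, adjusted p = 1.6e-10), as did HRK, another BH3-only gene (0.80 ± 0.085, adjusted p = 2.58e-09). BAK1, the second effector, rose in H1650 Tr-BrM against BrM controls (0.39 ± 0.059, adjusted p = 1.32e-06) and again under S100A9-inh (0.15 ± 0.055, adjusted p = 0.0397). In PC9, 3 of 8 rose and 3 fell in Tr-BrM against BrM controls (median 0.051), and 4 rose and 1 fell under S100A9-inh (median 0.32). BAK1 fell in PC9 Tr-BrM controls (-0.58 ± 0.071, adjusted p = 2.68e-08) and rose under S100A9-inh (0.43 ± 0.072, adjusted p = 9.04e-06). BOK, an effector-like member, did the same (-0.65 ± 0.053, adjusted p = 6.96e-12, then 0.50 ± 0.054, adjusted p = 3.46e-09). HRK went another way and rose in both PC9 comparisons (0.87 ± 0.20, adjusted p = 0.000368, then 0.665 ± 0.17, adjusted p = 0.00138). BID was at 63.3 ± 4.1 CPM under S100A9-inh, 74 ± 2.4 CPM in Tr-BrM controls and 58.3 ± 1.3 CPM in BrM controls of PC9 (SD, n = 3 each).

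Among 9 genes of cytochrome c release and the apoptosome, 1 rose and 4 fell in H1650 Tr-BrM against BrM controls (median -0.28) and 3 rose and 1 fell under S100A9-inh (median 0.053). VDAC1, a channel of the outer membrane, fell (-1.01 ± 0.031, adjusted p = 1.27e-21), and CYCS, cytochrome c itself, fell too (-0.48 ± 0.028, adjusted p = 7.59e-15). In PC9, 5 rose and 3 fell in Tr-BrM against BrM controls, CYCS rising (0.94 ± 0.052, adjusted p = 7.59e-16), and 4 rose and 1 fell under S100A9-inh, with medians of 0.15 in both. APAF1, the scaffold of the apoptosome, was at 9.05 ± 1.0 CPM under S100A9-inh, 3.25 ± 1.1 CPM in Tr-BrM controls and 11.5 ± 0.72 CPM in BrM controls of PC9 (SD, n = 3 each). It fell in Tr-BrM controls against BrM controls (log2 fold change -1.82 ± 0.15 SE, adjusted p = 1.33e-11) and rose under S100A9-inh against Tr-BrM controls (log2 fold change 1.48 ± 0.16 SE, adjusted p = 3.55e-09), the same order of groups as BMF. Of 7 caspases, 5 fell and none rose in PC9 Tr-BrM controls against BrM controls and 4 rose and none fell under S100A9-inh, with medians of -0.25 and 0.31. CASP8, the initiator of the death receptor arm, changed by -0.28 ± 0.073, adjusted p = 0.00163 and 0.31 ± 0.073, adjusted p = 0.000557 in these 2 comparisons. In H1650, 2 caspases rose and 3 fell in the first comparison, CASP10 rising (1.46 ± 0.12, adjusted p = 4.83e-12) and CASP8 falling (-0.65 ± 0.055, adjusted p = 2.27e-11), and none of 7 passed under S100A9-inh, with medians of -0.062 and -0.018.

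**Figure D4:**
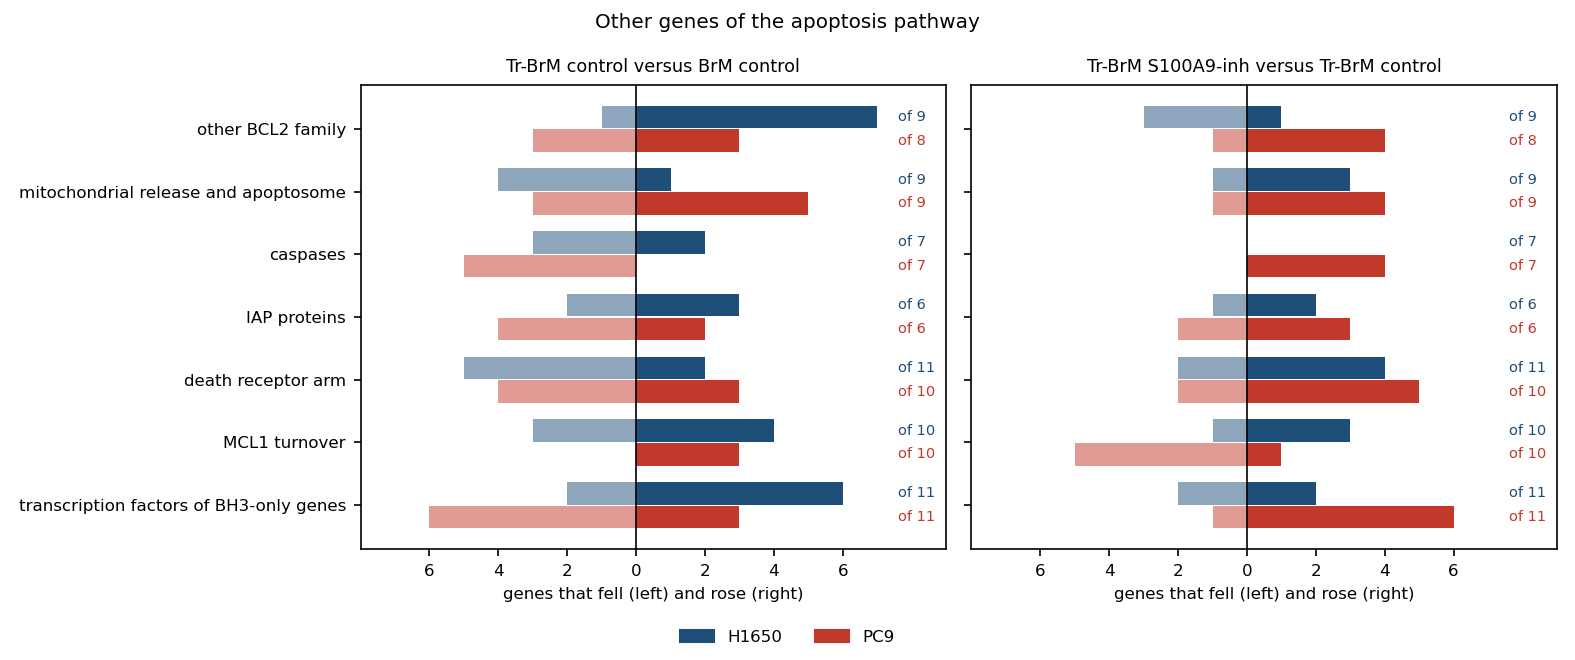
Number of tested genes of each pathway list that passed higher or lower in Tr-BrM against BrM controls and in S100A9-inh against Tr-BrM controls, by line. The PC9 caspases show 5 lower and 0 higher in the first comparison, where 30.3% of all PC9 genes tested were lower and 29.6% higher, and 0 lower and 4 higher in the second, where 26.1% were lower and 26.3% higher.

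The IAP (inhibitor of apoptosis) list held 6 genes. In Tr-BrM against BrM controls 3 rose and 2 fell in H1650, and 2 rose and 4 fell in PC9. Under S100A9-inh 2 rose and 1 fell in H1650, and 3 rose and 2 fell in PC9. The list's medians were 0.066 and -0.25 in the first comparison and 0.059 and 0.03 in the second. BIRC5, which encodes survivin, rose in Tr-BrM controls of both lines (0.48 ± 0.033 in H1650 and 0.50 ± 0.041 in PC9) and fell under S100A9-inh in both (-0.31 ± 0.032 and -0.25 ± 0.041). BIRC3 rose under S100A9-inh in both lines (1.03 ± 0.059, adjusted p = 7.42e-14, and 0.41 ± 0.11, adjusted p = 0.00284). In the death receptor arm, 2 of 11 genes rose and 5 fell in H1650 and 3 of 10 rose and 4 fell in PC9 Tr-BrM against BrM controls, and 4 rose and 2 fell in H1650 and 5 rose and 2 fell in PC9 under S100A9-inh. Medians of this arm were -0.15 and -0.10 in the first comparison and 0.025 and 0.16 in the second. FAS, a death receptor, fell in H1650 Tr-BrM controls (-1.31 ± 0.13, adjusted p = 7.23e-10) and rose under S100A9-inh (1.08 ± 0.13, adjusted p = 1.76e-07), and in PC9 it rose (1.62 ± 0.18, adjusted p = 5.27e-09) and then fell (-0.47 ± 0.16, adjusted p = 0.0146). The adaptor TRADD fell and then rose in PC9 (-0.86 ± 0.071, adjusted p = 7.91e-12, then 0.79 ± 0.072, adjusted p = 9.54e-11). Of 10 genes of MCL1 turnover, 4 rose and 3 fell in H1650 and 3 rose and none fell in PC9 Tr-BrM against BrM controls, and 3 rose and 1 fell in H1650 and 1 rose and 5 fell in PC9 under S100A9-inh. Its medians were -0.048 and 0.038, then 0.076 and -0.069. FBXW7, a ubiquitin ligase subunit that targets MCL1, rose in Tr-BrM controls of H1650 (0.75 ± 0.047, adjusted p = 3.57e-14) and PC9 (0.71 ± 0.082, adjusted p = 1.01e-08). USP9X, a deubiquitinase that stabilises MCL1, fell under S100A9-inh in PC9 (-1.002 ± 0.045, adjusted p = 9.48e-18).

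Among 11 transcription factors known to act on BH3-only genes, 6 rose and 2 fell in H1650 and 3 rose and 6 fell in PC9 Tr-BrM against BrM controls, and 2 rose and 2 fell in H1650 and 6 rose and 1 fell in PC9 under S100A9-inh. Their medians were 0.20 in H1650 and -0.11 in PC9 in the first comparison and -0.059 and 0.36 in the second, in the same order. FOXO4 rose in H1650 Tr-BrM controls (1.95 ± 0.14, adjusted p = 3.05e-13) and fell under S100A9-inh (-0.40 ± 0.11, adjusted p = 0.0057). In PC9 it fell in Tr-BrM controls (-0.81 ± 0.11, adjusted p = 2.67e-07) and rose under S100A9-inh (0.65 ± 0.11, adjusted p = 1.77e-05). ATF3, a stress-induced factor, rose under S100A9-inh in H1650 (0.75 ± 0.042, adjusted p = 4.49e-14) and in PC9 (1.18 ± 0.12, adjusted p = 1.89e-09). RNA of a factor does not measure its activity.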

How the data were processed

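Per the labels' protocols, libraries for sequencing were built from poly-A selected RNA. For each line the authors deposited 1 table of raw counts per gene, whole numbers with no normalization. Per the submitters' processing notes, STAR, GRCh38, R 4.0.1 and DESeq2 1.28.1 were used. The sources used here do not give the counting tool, the annotation release or strand use, and without strand, reads of a gene and an overlapping antisense gene cannot be separated. The tables shared 60399 identifiers, and 3 of the 10 genes carried the same identifier version in both, so gene models can differ between the lines.

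For each line, all 9 libraries entered edgeR's quasi-likelihood test (edgeR 4.0.16, R 4.3.3) after TMM scaling and filtering with filterByExpr. P-values were adjusted by Benjamini-Hochberg over 17937 genes in H1650 and 16169 in PC9, at a threshold of 0.05. Differences between lines were contrasts in 1 model of 18 libraries. SE was taken as |log2 fold change| divided by the root of F. At the common biological coefficients of variation, 0.0335 (H1650) and 0.0433 (PC9), small differences pass. Genes with few counts (BCL2, BIK in PC9) have wide errors at this depth, and intervals cover the spread of these libraries only. TPM used union exon lengths of GENCODE 29, which also gave positions. None of 18 replicate pairs was identical, with chi-square values of 1.542 to 6.51 per degree of freedom. The code was tested on simulated counts.

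The 10 genes, the lists and the alternatives were chosen with earlier results of these data known. All 10 genes are named; of each list at most 3 genes per line, with the smallest p over the comparisons and at 5 CPM or more in some group, could be named, and fewer are. A few genes are not reported here. Alternatives were other scalings, other filters, DESeq2 1.42.0, a 1.5-fold threshold, the compared groups alone, plain totals and leaving out each library.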

Additional observations from a re-analysis of the deposited data

Results flagged for a closer look

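Differences between the lines were singled out where the same comparison changed a gene differently in PC9 and H1650, by the interaction contrast in edgeR's model of all 18 libraries with Benjamini-Hochberg adjustment. Values are PC9 minus H1650 on the log2 scale, and no explanation of them was tested. For Tr-BrM control against BrM control the 8 differences were -1.35 for BCL2, -0.25 for BCL2L1, -0.69 for BCL2L2, -0.67 for MCL1, -2.66 for BMF, -2.57 for BIK, -0.53 for BBC3 and -0.52 for PMAIP1. All 8 were negative, and BMF and BIK had the largest of them. Of all 19076 genes, 54.6% differed in either direction here, and 40.4% and 50.2% in the comparisons below. The share with a negative difference was not counted. That of BBC3 no longer passed in 4 of 18 omissions of 1 library, where it came to as little as -0.38 (adjusted p = 0.138, without PC9 BrM control replicate 2), nor by DESeq2 (-0.53, adjusted p = 0.0577).

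For S100A9-inh against Tr-BrM control the 7 differences were -0.32 for BCL2L1, 0.67 for BCL2L2, -0.26 for BCL2L11, 1.58 for BMF, -0.55 for BIK, 0.58 for BBC3 and 0.56 for BAX. Without PC9 S100A9-inh replicate 1 those of BCL2L11 (-0.23, adjusted p = 0.064), BIK (-0.59, adjusted p = 0.0563) and BBC3 (0.42, adjusted p = 0.104) no longer passed, and BIK was lost in 13 of 18 such omissions and BBC3 in 3.

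For S100A9-inh against BrM control the 8 differences were -1.45 for BCL2, -0.57 for BCL2L1, -0.58 for MCL1, -0.42 for BCL2L11, -1.09 for BMF, -3.12 for BIK, -0.44 for PMAIP1 and 0.43 for BAX.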

How the results depend on the processing

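No paired analysis was possible because the labels give the groups no shared replicate numbers. Of 1770 values of the 10 genes under alternatives, 1608 kept their direction and their side of the threshold, 110 lost a call, 8 gained one and 44 changed sign. A test of changes beyond 1.5-fold (glmTreat) moved the counts most. It called 4302 genes in H1650 and 2429 in PC9 for Tr-BrM against BrM controls, 225 and 1329 for S100A9-inh against Tr-BrM controls, and 4042 and 1162 for S100A9-inh against BrM controls. The differences between lines numbered 4748, 1555 and 3821 in the same order of comparisons. Of the 10 genes it called 3 (BCL2, BMF and BIK) in H1650 and 1 (BMF) in PC9, then 0 and 1 (BMF), then 2 (BCL2 and BIK) and 0, and of the differences 3 (BCL2, BMF and BIK), 1 (BMF) and 3 (BCL2, BMF and BIK). Fewer pass there because the threshold itself asks for more than a 1.5-fold change.

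The sign changes were of values that did not pass. In H1650 Tr-BrM against BrM controls PMAIP1 was 0.077 with library-size scaling, 0.015 with the upper quartile and 0.003 with the 1 CPM filter or the 2 groups alone, and BAX was 0.066 and 0.005 with the first 2 of these. In H1650 S100A9-inh against Tr-BrM controls BBC3 was -0.016 with library-size scaling and BCL2L11 0.004 with no filter. With the upper quartile BCL2L11 was 0.006 in PC9 Tr-BrM against BrM controls and the difference between lines of BCL2L2 for S100A9-inh against BrM controls was 0.009. Library-size scaling also gave BCL2L11 a call in H1650 (0.21, adjusted p = 0.00799, for Tr-BrM against BrM controls), and it shifted the median of all genes there by 0.084, the largest shift of any scaling. It called BCL2L11 in H1650 S100A9-inh against BrM controls too (0.0264). It lost PMAIP1 in H1650 S100A9-inh against Tr-BrM controls (0.0932). Of differences between lines it gained BAX for Tr-BrM against BrM controls (0.012) and MCL1 for S100A9-inh against Tr-BrM controls (0.0226). In the latter comparison it lost BCL2L11 (0.106) and BIK (0.0812). No filter lost both too (0.055 and 0.12), and PMAIP1 in PC9 S100A9-inh against Tr-BrM controls (0.065). DESeq2 did not call PMAIP1 under S100A9-inh against Tr-BrM controls in either line (adjusted p = 0.0767 in H1650 and 0.122 in PC9), nor BBC3 in PC9 Tr-BrM against BrM controls (0.0573), nor, against BrM controls, PMAIP1 in H1650 (0.0536) and BIK in PC9 (0.111) under S100A9-inh. It also missed the differences between lines of BBC3 for Tr-BrM against BrM controls (0.0577) and of BIK for S100A9-inh against Tr-BrM controls (0.0738).

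Leaving out 1 library at a time gave sign changes with these ranges. In H1650 Tr-BrM against BrM controls BBC3 ran from -0.035 to 0.117, PMAIP1 from -0.039 to 0.020 and BAX from -0.066 to 0.030. In H1650 S100A9-inh against Tr-BrM controls BCL2 ran from -0.041 to 0.231, BCL2L2 from -0.088 to 0.055, BCL2L11 from -0.055 to 0.053 and BBC3 from -0.041 to 0.061, and against BrM controls BBC3 ran from -0.017 to 0.136. In PC9 BCL2L11 ran from -0.066 to 0.011 in Tr-BrM against BrM controls, BCL2 from -0.049 to 0.106 and BIK from -0.049 to 0.266 in S100A9-inh against Tr-BrM controls, and BBC3 from -0.054 to 0.247 against BrM controls. Differences between lines for S100A9-inh ran from -0.226 to 0.051 for BCL2 and -0.001 to 0.165 for PMAIP1 against Tr-BrM controls, and from -0.094 to 0.031 for BCL2L2 and -0.112 to 0.195 for BBC3 against BrM controls. The number of the 10 genes called ran from 6 to 7, 3 to 4 and 7 to 9 in H1650 and from 5 to 7, 7 to 8 and 6 to 8 in PC9, for Tr-BrM against BrM, S100A9-inh against Tr-BrM and S100A9-inh against BrM controls. On plain totals 3 of 60 group levels moved by more than 1 SD, BCL2L1, MCL1 and PMAIP1 in H1650 BrM controls (150.2, 205.5 and 50.3 CPM).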

Other observations

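The genes whose pattern was most like that of each member were listed by Pearson's r of log2(CPM + 0.5) centred within each line, over 18 libraries, among 10273 genes that reached 5 CPM in at least 1 group of each line. These r values describe libraries that share groups and depth, and carry no test. Nearest to BMF were HECTD4 (0.975), CCNG2 (0.975) and RAB5B (0.972), and nearest to BIK were UBE4B (0.981), CHST11 (0.975) and PTGER4 (0.97). MCL1 was most like DSC2 (0.976), YWHAB (0.964) and UBL3 (0.962), and BCL2L1 most like DHRS2 (0.953), PLEKHB2 (0.942) and DAG1 (0.94). For BCL2L2 the 3 genes were AGO4 (0.94), DSP (0.938) and RALB (0.933), and for BCL2 they were GNA13 (0.955), RBPJ (0.935) and DOK7 (0.934). BAX was nearest to PAK4 (0.936), IDH2 (0.933) and SOX13 (0.912), and PMAIP1 had PPP1R12A (0.943) and LEPROT (0.943) among its 3. For BCL2L11 and BBC3 the values were 0.933 for FAM76B, 0.862 for SNX4 and 0.856 for VPS13B, and 0.84 for DUSP28, 0.836 for SDSL and 0.831 for PFKM. BCL2, below 5 CPM in every group of both lines, and BIK, below 5 CPM in every PC9 group, could not be listed as neighbours. None of the remaining members was among the 3 nearest genes of another member.

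Further pathway genes outside the 10 passed the test. TP63, a transcription factor of the list on BH3-only genes, rose in H1650 Tr-BrM against BrM controls (3.37 ± 0.22, adjusted p = 7.17e-14), to 5.56 ± 1.1 CPM against 0.526 ± 0.15 CPM (SD, n = 3 each). BIRC7, an IAP gene, rose there as well (3.05 ± 0.24, adjusted p = 6.18e-12) and again under S100A9-inh against Tr-BrM controls (0.67 ± 0.15, adjusted p = 0.000661). TNFRSF10D, a decoy receptor of TRAIL, rose in PC9 Tr-BrM against BrM controls (0.82 ± 0.079, adjusted p = 2.26e-10). AIFM1, a flavoprotein of the mitochondrial intermembrane space, fell in PC9 Tr-BrM controls (-0.76 ± 0.042, adjusted p = 5.53e-16) and rose under S100A9-inh (0.53 ± 0.042, adjusted p = 7.05e-12), as did CASP6, an executioner caspase (-0.72 ± 0.12, adjusted p = 2.71e-06, then 0.38 ± 0.12, adjusted p = 0.00791).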
